A study of Homo sapiens with 12 samples.

Results

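YAP and TAZ, the TEAD transcription factors they bind and the TEAD cofactor VGLL4 are encoded by 7 genes, *YAP1*, *WWTR1*, *TEAD1*, *TEAD2*, *TEAD3*, *TEAD4* and *VGLL4*. They were picked by their Entrez identifiers from a table of 26258 genes, and all 7 were in it. RNA had been sequenced from HLE, a line of human hepatocellular carcinoma cells that had received a non-targeting control (siCtrl), siRNAs that lower YAP together with TAZ (siY/T), or an siRNA that lowers ATF4 (siATF4). Each transfection was cultured either with the solvent DMSO or with Sorafenib (Srf), an inhibitor of several kinases used against liver cancer. The labels give 5 µM Sorafenib and no duration, whereas the study's legend for its sequencing with Sorafenib states a higher dose and a duration. Every group held 2 libraries, 12 in all. The siRNAs lower their targets for a time and remove neither gene, and all groups come from the same cell line.

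YAP and TAZ are transcriptional coactivators that do not bind DNA themselves. When the Hippo kinases are inactive they enter the nucleus, bind one of the TEAD factors and switch on genes for growth and matrix, and in the liver the Hippo kinases limit organ size, while YAP and TAZ are often active in carcinoma. VGLL4 competes with YAP and TAZ for the TEAD surface and is known as a repressor, whereas ATF4 is the transcription factor of the integrated stress response that turns on amino acid and redox genes. The comparisons asked whether the TEAD genes and *VGLL4* moved when YAP and TAZ or ATF4 were depleted, and whether Sorafenib moved any of the 7.

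The level of a gene is given as CPM, its count scaled to a library of 1000000 counted reads. The libraries held 41408348 to 53619732 reads on genes, and 915 to 24915 reads lay behind each value of the 7 genes. The 2 libraries of a group differed on the log2 scale with an SD of 0.110 to 0.132 over the genes tested in 5 groups and of 0.190 in siY/T DMSO. That pair stands apart. For the 7 genes, many but not all results that rest on it are also given with its libraries left out. For genes of the lists, results are given only with both of its libraries. A gene was called changed at an adjusted p under 0.05 in a limma fit of log2(CPM + 0.5) across 13515 genes, and all 7 genes passed the filter of 1 CPM in at least 2 libraries. The study's own rule, an unadjusted p under 0.05 with a log2 fold change of at least 0.58 in either direction, is given beside it. In bulk RNA, fewer cells of a type and less RNA per cell cannot be told apart. Of 9 hepatocyte markers, only *SERPINA1* reached 1 CPM in any library, *APOB* was at 0 in 12 libraries and *ALB* did not pass 0.0214 CPM, so the defining markers of hepatocytes were absent from these cells. The summed hepatocyte markers were 0.224 to 0.422 CPM in siCtrl DMSO, 1.88 to 2.59 in siY/T DMSO and 0.0594 to 0.0643 in siATF4 DMSO, and with Sorafenib 0.631 to 0.665, 1.35 to 1.82 and 0.171 to 0.171. Vimentin (*VIM*) stood at 1952 to 2916 CPM and the keratin *KRT8* at 655 to 2558 CPM. Of the other mesenchymal markers, *TGFBI* was at 482 to 1555, *FN1* at 18.8 to 79.6, *ZEB1* at 7.84 to 27.0 and *CDH2* at 3.77 to 6.92 CPM. The summed mesenchymal markers were 3364 to 3504 CPM in siCtrl DMSO, 3854 to 4254 in siY/T DMSO and 2666 to 2800 in siATF4 DMSO. With Sorafenib they were 4052 to 4094, 3544 to 3656 and 2726 to 2751 CPM. *PTPRC* and *PECAM1*, defining leukocyte and endothelial markers, were at 0 in 11 of 12 libraries each. Of the 4 leukocyte markers, *CD3E* was at 0 in 12 libraries and *LYZ* did not pass 0.0758 CPM, but *CD68*, a lysosomal protein of macrophages and other cells, was at 19.8 to 75.0 CPM. The summed leukocyte markers were thus 19.8 to 21.1 CPM in siCtrl DMSO, 26.3 to 32.4 in siY/T DMSO and 71.9 to 75.0 in siATF4 DMSO, and with Sorafenib 22.8 to 23.4, 26.2 to 30.3 and 61.4 to 62.1 CPM. The 4 endothelial markers summed to at most 0.364 CPM in any library. The summed epithelial markers were lower with both siRNAs, at 3223 to 3333 CPM in siCtrl DMSO, 978 to 1025 in siY/T DMSO and 2140 to 2256 in siATF4 DMSO, and with Sorafenib at 3172 to 3300.4, 1301 to 1339 and 2591 to 2792 CPM. That sum was almost all *KRT8* and *KRT18*, the latter at 312 to 1089 CPM. The epithelial markers *CDH1*, *EPCAM* and *KRT19* did not pass 7.93, 0.701 and 0.513 CPM. The summed stromal markers were at 569 to 596 CPM in siCtrl DMSO, 997 to 1032 in siY/T DMSO and 139 to 159.8 in siATF4 DMSO, and with Sorafenib at 827 to 836, 1240 to 1274 and 249 to 265 CPM. Most of that sum was the collagen gene *COL1A2*, at 134 to 1220 CPM, with *COL1A1* at 5.49 to 52.7 CPM. The stromal markers *DCN*, *LUM* and *PDGFRA* did not pass 0.0468, 0.385 and 1.96 CPM in any library. The part of these markers in the results below was not tested.

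The promoters bear on whether the letters bound by TEAD or ATF4 lie just before these genes. RefSeq windows of the 250 bases before a transcription start (GRCh38.p14) were at hand for 5 of the 7 genes, 11 windows in all, and *TEAD1* and *TEAD4* had none. The search covered CATTCC and its complement GGAATG for TEAD, TGATGCAA and TGATGAAA with their complements TTGCATCA and TTTCATCA for ATF4 with a C/EBP partner, and TGAGTCA and TGACTCA for AP-1. Both strands were searched, and 2 windows held a single match each. They are printed 5′ to 3′ to show where it lies, with the match in capitals.
YAP1, chr11:102110197-102110446, plus strand: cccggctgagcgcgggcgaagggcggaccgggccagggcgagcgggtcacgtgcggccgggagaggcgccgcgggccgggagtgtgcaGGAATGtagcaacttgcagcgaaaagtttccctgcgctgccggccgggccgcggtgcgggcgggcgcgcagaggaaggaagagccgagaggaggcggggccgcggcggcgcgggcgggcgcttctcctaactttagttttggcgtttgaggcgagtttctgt
VGLL4, chr3:11604582-11604831, minus strand: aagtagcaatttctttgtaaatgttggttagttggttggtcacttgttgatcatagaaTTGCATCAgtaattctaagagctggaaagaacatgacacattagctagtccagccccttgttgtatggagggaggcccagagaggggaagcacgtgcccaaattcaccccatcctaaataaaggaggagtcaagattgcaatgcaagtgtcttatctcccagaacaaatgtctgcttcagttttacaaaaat
The *YAP1* window held the TEAD letters at position -162 from the start. Among 35114 windows of the same length, 11.9% held them. The *VGLL4* window, 1 of its 5, held the ATF4 letters at -192, which 1.70% of all windows hold. None of the 11 windows held the AP-1 letters, found in 4.20% of all windows. These matches describe the letters in the windows and not binding.

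*TEAD1* had the most reads of the family, but its transcript is long. Per kilobase of exon of the main transcript, the level in siCtrl DMSO cells was 35.7 ± 0.659 CPM (SD, n = 2) for *TEAD4*, 32.8 ± 0.898 for *TEAD1*, 24.6 ± 1.10 for *TEAD2* and 7.91 ± 0.436 for *TEAD3*. *TEAD4* thus made up 35.4% and *TEAD1* 32.4% of the summed TEAD level. With the exons of all coding transcripts as the length, *TEAD1* came first with 36.8% and *TEAD4* second with 31.1%, so the order of these paralogs depends on the transcript assumed. *TEAD3* was the lowest on both scales, at 7.84% and 8.98%. On the scale of the main transcript, *YAP1* reached 51.5 ± 0.378, *WWTR1* 34.0 ± 0.468 and *VGLL4* 16.2 ± 0.650 CPM per kilobase. *YAP1* and *WWTR1* together stood at 0.847 of the summed TEAD level in siCtrl DMSO cells.

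**Figure D1:**
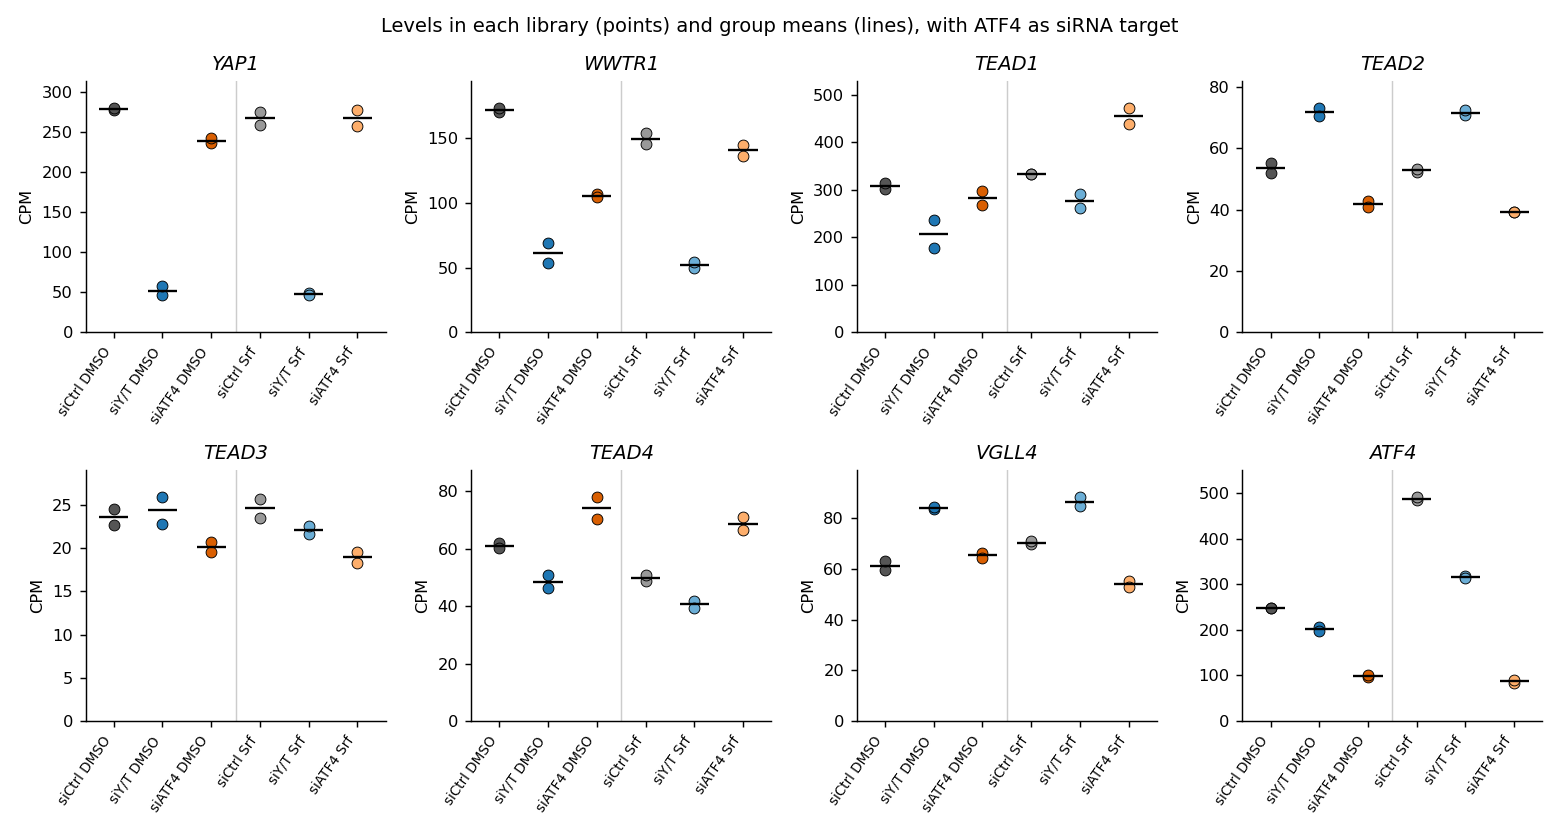
Levels of the 7 genes and of *ATF4*, the target of siATF4, in CPM (y axes from 0) in each of the 12 libraries; points are libraries, lines are means of 2, and the grey line parts DMSO from Sorafenib. *TEAD2* and *VGLL4* are highest in the siY/T groups, *TEAD4* is highest in the siATF4 groups, and *TEAD1* is highest in siATF4 Srf at 472 and 439 CPM.

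The siRNA targets were low where the labels say so. *YAP1*, at GRCh37 chr11:101981178-102104155 and encoding YAP, was at 277 and 279.9 CPM in siCtrl DMSO and at 46.6 and 57.7 CPM in siY/T DMSO. In Sorafenib it was at 275 and 259 CPM with siCtrl and at 48.7 and 47.0 CPM with siY/T. *WWTR1*, at chr3:149235022-149454501 and encoding TAZ, was at 169.8 and 173 CPM in siCtrl DMSO, at 53.3 and 68.6 in siY/T DMSO, at 154 and 145 in siCtrl Srf and at 49.3 and 54.5 in siY/T Srf. In DMSO and in Sorafenib, *YAP1* fell by 81.2% and fell by 81.9%, and *WWTR1* fell by 64.5% and fell by 65.1%, so *WWTR1* kept the larger share of its transcript. These falls check the labels and are not counted below. *ATF4* was at 248 and 249 CPM in siCtrl DMSO against 96.2 and 101 with siATF4, and at 484 and 492 CPM in siCtrl Srf against 84.5 and 90.6 with siATF4. With siATF4, *ATF4* was lower in Sorafenib than in DMSO, with a log2 fold change of -0.17 (SE 0.044, limma adjusted p = 0.00657), whereas with siCtrl it was higher, with 0.97 (SE 0.044, limma adjusted p = 4.61e-09).

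With siY/T in DMSO, *TEAD1* and *TEAD4* fell and *TEAD2* and *VGLL4* rose, whereas *TEAD3* did not pass the test. That is 4 of the 5 genes not targeted, with 60.1% of all genes tested called in this comparison (37.3% raised, 22.8% lowered). Of the genes called, 62.1% were raised, against 48.0% to 52.5% under TMM scaling, quantile normalization, edgeR and DESeq2. The 4 called genes also had no overlap between groups, as had 76.7% of all genes tested. The median change of all genes was 0.07 on the log2 scale and that of the 5 genes 0.04. Only *TEAD1* passed the study's rule, which 14.6% of all genes passed.

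*TEAD1* (chr11:12695968-12966284), a broadly expressed TEAD factor, was at 302 and 314 CPM in siCtrl DMSO and at 177 and 236 CPM in siY/T DMSO. Both siY/T libraries lay below both controls, yet they differed from each other more than the controls did. The log2 fold change was -0.59 (SE 0.101, limma adjusted p = 2.34e-04). Without the first siY/T DMSO library it was -0.39 and without the second -0.80, and the gene stayed called in both. *TEAD4* (chr12:3068496-3149842), the TEAD factor known for its part in the early trophectoderm, fell from 61.8 and 60.2 CPM to 50.8 and 46.3 CPM. Its log2 fold change was -0.33 (SE 0.064, limma adjusted p = 6.79e-04), with no overlap between the groups.

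*TEAD2* (chr19:49843852-49865714), a TEAD factor known from embryonic tissue, went the other way. It was at 51.9 and 55.3 CPM in siCtrl DMSO and at 73.1 and 70.4 CPM in siY/T DMSO, a log2 fold change of 0.42 (SE 0.049, limma adjusted p = 9.86e-06). *TEAD3* (chr6:35441374-35464856), known from placenta, was at 24.5 and 22.7 CPM against 25.9 and 22.8 CPM, and the libraries overlapped. Its log2 difference of 0.04 (SE 0.076, limma adjusted p = 0.65) took the opposite sign under TMM scaling, quantile normalization, edgeR and DESeq2. *VGLL4* (chr3:11597543-11812824) was at 59.5 and 63.0 CPM in siCtrl DMSO and at 83.6 and 84.2 CPM in siY/T DMSO. With any 1 library left out, the log2 fold changes with siY/T in DMSO ran from 0.37 to 0.46 for *TEAD2*, from -0.39 to -0.26 for *TEAD4* and from 0.41 to 0.49 for *VGLL4*, and the 3 genes stayed called. The rise of *VGLL4* by 36.7% was 0.45 on the log2 scale (SE 0.047, limma adjusted p = 3.38e-06). Exons of *VGLL4* overlap *ATG7* on the other strand, and the strand setting of the counting is not given in the sources used here. *ATG7* averaged 36.4 CPM in siCtrl DMSO and 34.5 CPM in siY/T DMSO, so it did not rise beside *VGLL4*.

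In Sorafenib, siY/T moved the same 4 genes in the same directions, with 48.9% of all genes called (30.2% raised, 18.8% lowered). Of the genes called, 61.7% were raised, against 48.7% to 49.8% under the other scalings. *TEAD2* rose from 52.4 and 53.1 CPM to 70.6 and 72.6 CPM, and *VGLL4* from 69.9 and 70.9 CPM to 84.6 and 88.5 CPM. The log2 fold changes were 0.44 for *TEAD2* (SE 0.049, limma adjusted p = 1.06e-05) and 0.30 for *VGLL4* (SE 0.047, limma adjusted p = 1.96e-04). *TEAD4* fell from 48.6 and 50.7 CPM to 41.9 and 39.3 CPM, a log2 fold change of -0.29 (SE 0.064, limma adjusted p = 0.00246). Libraries of the groups overlapped for none of the 5 genes, as for 76.4% of all genes tested, and none of the 5 passed the study's rule, which 9.95% of all genes passed.

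*TEAD1* was the least certain of the 4. It was at 333 and 333 CPM in siCtrl Srf and at 291 and 262 CPM in siY/T Srf, a log2 fold change of -0.27 (SE 0.101, limma adjusted p = 0.0416). The call was lost with no filter on low values (limma, adjusted p = 0.113) and when single libraries were left out. The limma adjusted p was 0.0572 and 0.0571 without the first or second siCtrl DMSO library, 0.124 and 0.132 without those of siCtrl Srf, 0.0549 and 0.055 without those of siATF4 Srf, and 0.253 without the second of siY/T Srf. *TEAD3* was at 25.7 and 23.5 CPM in siCtrl Srf and at 21.6 and 22.5 CPM in siY/T Srf. Its log2 difference of -0.15 (SE 0.076, limma adjusted p = 0.117) passed the test under TMM scaling (-0.21), quantile normalization (-0.24) and edgeR (-0.21).

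The siY/T effect itself was not called different between Sorafenib and DMSO for any of the 5 genes by limma, edgeR or DESeq2, against 22.0% of all genes tested with limma (7.81% raised, 14.2% lowered), and none passed the study's rule (5.29% of all genes). The difference was 0.32 for *TEAD1* (SE 0.143, limma unadjusted p = 0.0415, adjusted p = 0.121) and -0.16 for *VGLL4* (SE 0.066, limma unadjusted p = 0.0357, adjusted p = 0.110). At an unadjusted p under 0.05, limma counted 2 of the 5 genes, edgeR 2 and DESeq2 0. With the replicate number fitted as a block within each medium, a setting chosen after seeing the data, *TEAD1* was called (limma, adjusted p = 0.0276). Without the second siY/T DMSO library the difference was 0.53 for *TEAD1* and -0.28 for *TEAD3*, and without the first 0.12 and -0.10. The lone remaining library of that group is then assumed to vary like the others.

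**Figure D2:**
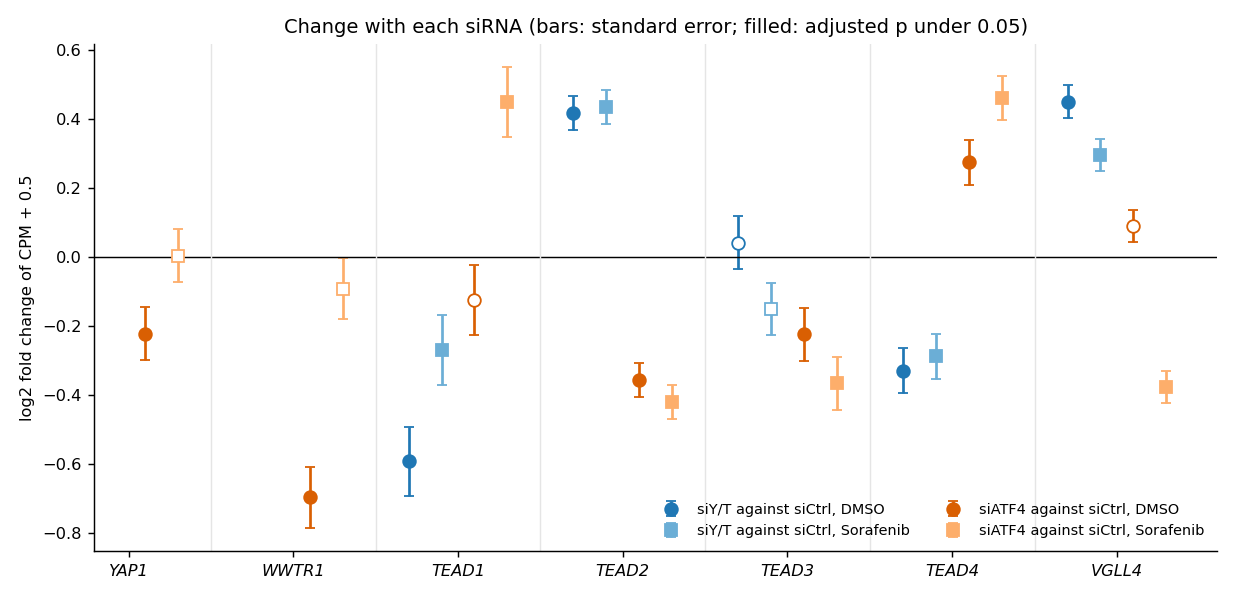
Log2 fold change of CPM + 0.5 (y axis) for each gene with siY/T (blue) or siATF4 (orange) against siCtrl, in DMSO (circles) and in Sorafenib (squares); bars are standard errors and filled symbols have an adjusted p under 0.05. The siRNA targets of siY/T are left out. *TEAD2* is up with siY/T (0.42 and 0.44) and down with siATF4 (-0.36 and -0.42), and *TEAD4* is the reverse.

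Depletion of ATF4 in DMSO lowered *YAP1*, *WWTR1*, *TEAD2* and *TEAD3* and raised *TEAD4*. These are 5 of the 7 genes, at a background of 67.9% of all genes called (33.4% raised, 34.4% lowered), so the share of members is close to that of all genes. All 7 had no overlap between the groups, as had 88.0% of all genes tested. The largest of the 7 changes was that of *WWTR1*, the gene of TAZ, which was at 107 and 104 CPM with siATF4 against 169.8 and 173 CPM with siCtrl. Its log2 fold change was -0.70 (SE 0.089, limma adjusted p = 1.29e-05), so that it fell by 38.3%, and it was the only one of the 7 past the study's rule, which 22.7% of all genes passed. The antisense gene *WWTR1-AS1*, which overlaps its exons, had 0.164 to 0.436 CPM in the 12 libraries.

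*YAP1* was at 236 and 242 CPM with siATF4 in DMSO. Its log2 fold change of -0.22 (SE 0.076, limma adjusted p = 0.0197) was smaller, and the call was lost without a filter (limma, adjusted p = 0.0565). It was also lost without the first or second siCtrl DMSO library (limma, adjusted p = 0.0651 and 0.0826) and without the first or second siATF4 DMSO library (limma, adjusted p = 0.0962 and 0.0528). *TEAD2* was at 42.7 and 40.7 CPM, below both controls, with a log2 fold change of -0.36 (SE 0.049, limma adjusted p = 2.62e-05). Reads of *CD37*, whose exons overlap *TEAD2*, did not pass 0.0468 CPM in any library. *TEAD4* was at 70.1 and 78.1 CPM, above both controls, with 0.28 (SE 0.064, limma adjusted p = 0.00195).

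*TEAD3* was at 20.7 and 19.6 CPM, with a log2 fold change of -0.22 (SE 0.076, limma adjusted p = 0.0185). That call was lost without the first siCtrl DMSO library (-0.17, limma adjusted p = 0.143) or the second siATF4 DMSO library (-0.18, limma adjusted p = 0.120), and either one left 3 of the 7 genes called. *TEAD1* was at 268 and 298 CPM, a log2 difference of -0.12 (SE 0.101, limma adjusted p = 0.289). *VGLL4* was at 66.2 and 64.4 CPM, a log2 difference of 0.09 (SE 0.047, limma adjusted p = 0.0998). Both passed the test when only siCtrl DMSO and siATF4 DMSO were fitted (limma, adjusted p = 0.0102 and 0.042), and *TEAD1* did without the first or second siY/T DMSO library (limma, adjusted p = 0.0407 and 0.0402).

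In Sorafenib, siATF4 moved *TEAD2*, *TEAD3* and *TEAD4* in the same directions as in DMSO, while the calls of the other genes differed. A differing call is not a test of the difference, which follows below. *TEAD1* and *TEAD4* rose, *TEAD2*, *TEAD3* and *VGLL4* fell, and neither coactivator gene passed the test. Again 5 of the 7 genes were changed, at a background of 73.2% (35.8% raised, 37.4% lowered), and the groups did not overlap for 6 of the 7 and for 87.1% of all genes. *TEAD1* reached 472 and 439 CPM, its highest level in the study, against 333 and 333 CPM with siCtrl, and the log2 fold change was 0.45 (SE 0.101, limma adjusted p = 0.00124). *TEAD4* was at 66.3 and 71.0 CPM, a log2 fold change of 0.46 (SE 0.064, limma adjusted p = 2.30e-05). Both TEAD genes thus stood well above siCtrl Srf cells, by 36.7% and 37.8%.

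*TEAD2* was at 39.3 and 39.3 CPM, its lowest level in the study, with a log2 fold change of -0.42 (SE 0.049, limma adjusted p = 4.43e-06). *TEAD3* was at 18.3 and 19.6 CPM, with -0.37 (SE 0.076, limma adjusted p = 6.81e-04). *VGLL4* was at 55.3 and 53.0 CPM, also its lowest level, with -0.38 (SE 0.047, limma adjusted p = 8.35e-06). The overlapping *ATG7* went the other way here, from a mean of 33.0 CPM in siCtrl Srf to 50.6 CPM in siATF4 Srf. It moved in the direction of *VGLL4* with siATF4 in DMSO (means of 36.4 and 59.1 CPM) and with siY/T in Sorafenib (33.0 and 35.7). The same held for Sorafenib in siATF4 cells (59.1 and 50.6) and in siY/T cells (34.5 and 35.7). The part of *ATG7* reads in the *VGLL4* values was not tested. *YAP1*, at 278 and 258 CPM, overlapped its controls, with a log2 difference of 0.00 (SE 0.076, limma adjusted p = 0.958). *WWTR1*, at 145 and 136 CPM, lay just under its controls, with -0.09 (SE 0.089, limma adjusted p = 0.369). None of the 7 passed the study's rule, which 28.9% of all genes passed.

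The siATF4 effect differed between Sorafenib and DMSO for *WWTR1*, *TEAD1* and *VGLL4*, 3 of the 7 genes, with 41.1% of all genes called in this test (19.3% raised, 21.8% lowered). For *WWTR1* the difference was 0.61 (SE 0.125, limma adjusted p = 0.00206), from -0.70 in DMSO to -0.09 in Sorafenib. For *TEAD1* it was 0.58 (SE 0.143, limma adjusted p = 0.00635), from -0.12 to 0.45. For *VGLL4* it was -0.47 (SE 0.066, limma adjusted p = 1.43e-04), from 0.09 to -0.38. *WWTR1* was also past the study's rule (12.5% of all genes). The 3 calls held in the fits with other scalings, filters, pseudocounts and tools and without any single library, whereas *YAP1*, with 0.23 (SE 0.107, limma adjusted p = 0.110), was called when only the 4 groups of the test were fitted and without either siY/T DMSO library. *TEAD2*, *TEAD3* and *TEAD4*, with -0.06, -0.14 and 0.19, were not called, and *TEAD4* passed when only the 4 groups were fitted.

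With Sorafenib in siCtrl cells, *TEAD4* fell and *VGLL4* rose. These 2 of the 7 genes compare with 63.2% of all genes called (36.3% raised, 26.9% lowered), and the groups did not overlap for 5 of the 7 and for 84.9% of all genes. For scale, the median absolute log2 change was 0.11 over the 7 genes and 0.26 over all genes. *TEAD4* fell from 61.8 and 60.2 CPM to 48.6 and 50.7 CPM, a log2 fold change of -0.29 (SE 0.064, limma adjusted p = 0.00137). *VGLL4* rose from 59.5 and 63.0 CPM to 69.9 and 70.9 CPM, with 0.20 (SE 0.047, limma adjusted p = 0.00235). Mean *ATG7* was 36.4 CPM before and 33.0 CPM after. No member passed the study's rule, which 17.5% of all genes passed.

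Neither coactivator gene passed the test in siCtrl cells. *YAP1* had a log2 difference of -0.06 (SE 0.076, limma adjusted p = 0.495), a value that took the opposite sign under quantile normalization. *WWTR1* did not pass with -0.20 (SE 0.089, limma adjusted p = 0.068), although both Sorafenib libraries lay below both DMSO libraries. It passed under TMM scaling (-0.23), edgeR (-0.23) and DESeq2 (-0.24), when only the 2 groups were fitted, and without the first or second siY/T DMSO library (limma, adjusted p = 0.00146 and 0.00145). *TEAD1*, *TEAD2* and *TEAD3* had log2 differences of 0.11, -0.02 and 0.06, with adjusted p of 0.357, 0.723 and 0.536 from limma. The libraries of *TEAD1* did not overlap, and it passed when only the 2 groups were fitted (limma, adjusted p = 0.00475).

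In siY/T cells Sorafenib again changed 2 of the 7, at a background of 52.9% (29.5% raised, 23.5% lowered), with none past the study's rule (9.97% of all genes) and no overlap for 4 of the 7 (71.7% of all genes). *TEAD1* rose from 177 and 236 CPM to 291 and 262 CPM, with a log2 fold change of 0.43 (SE 0.101, limma adjusted p = 0.00300). It was 0.23 without the first siY/T DMSO library and 0.64 without the second, and called in both. *TEAD4* fell to 41.9 and 39.3 CPM, its lowest level in the study, with -0.25 (SE 0.064, limma adjusted p = 0.00505), a call lost without the second siY/T Srf library (-0.21, limma adjusted p = 0.0516). *WWTR1* had -0.22 (SE 0.089, limma adjusted p = 0.0513) with overlapping libraries. It passed the test under TMM scaling (-0.25), quantile normalization (-0.23), edgeR (-0.26) and DESeq2 (-0.25). Without the first siY/T DMSO library, *WWTR1* was at -0.40 and *YAP1* at -0.27, and without the second at -0.04 and 0.04. Leaving out the second siY/T Srf library gave -0.29 for *WWTR1*. For *TEAD3*, the log2 difference was -0.05 without the first siY/T DMSO library and -0.23 without the second.

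Sorafenib changed 3 of the 7 in siATF4 cells, at a background of 50.4% (27.9% raised, 22.4% lowered), with no overlap for 5 of the 7 and for 79.6% of all genes. *TEAD1* rose from 268 and 298 CPM to 472 and 439 CPM, a rise of 60.8% and a log2 fold change of 0.69 (SE 0.101, limma adjusted p = 1.12e-04). It was the only member past the study's rule here, which 8.63% of all genes passed. *WWTR1* rose from 107 and 104 CPM to 145 and 136 CPM, with 0.41 (SE 0.089, limma adjusted p = 0.00201). *VGLL4* fell from 66.2 and 64.4 CPM to 55.3 and 53.0 CPM, with -0.27 (SE 0.047, limma adjusted p = 4.26e-04). The Sorafenib effect on *VGLL4* therefore had the opposite sign to that in siCtrl cells, and the difference between them is the value of -0.47 tested above. *YAP1* did not pass, at 236 and 242 CPM in DMSO and 278 and 258 CPM in Sorafenib (0.16, limma adjusted p = 0.0875) and passed without either siY/T DMSO library and when only the 2 groups were fitted.

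**Figure D3:**
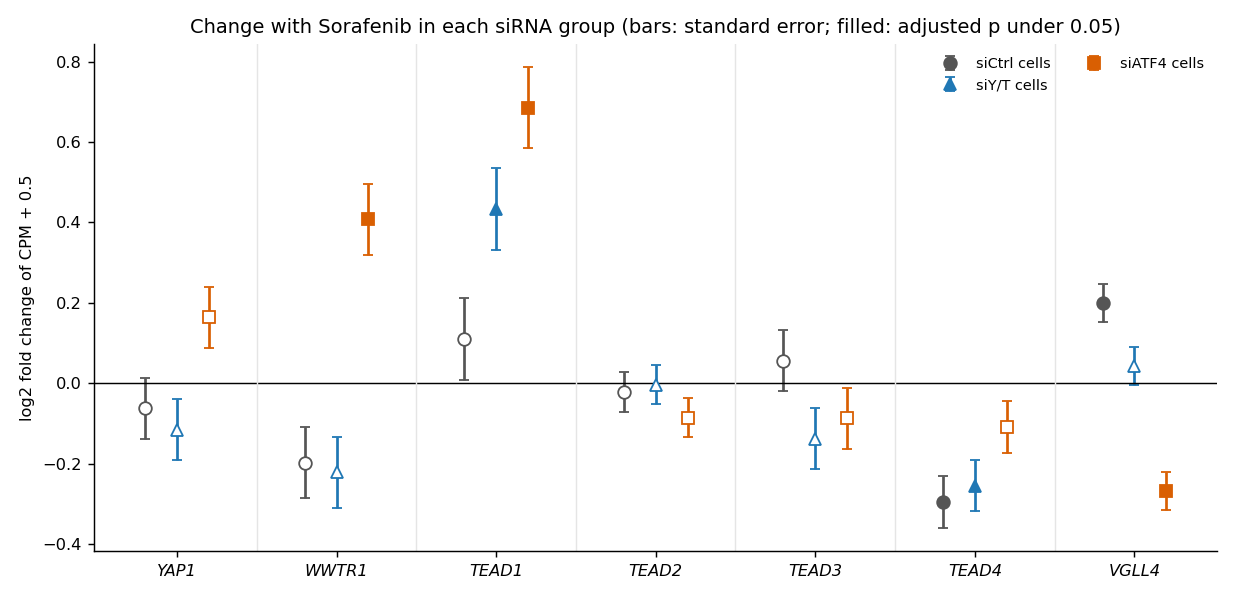
Log2 fold change of CPM + 0.5 (y axis) with Sorafenib against DMSO for each gene in siCtrl (grey circles), siY/T (blue triangles) and siATF4 cells (orange squares); bars are standard errors and filled symbols have an adjusted p under 0.05. *TEAD1* is changed in siY/T (0.43) and siATF4 cells (0.69), and *VGLL4* is up in siCtrl (0.20) and down in siATF4 cells (-0.27).

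Because the siY/T and siATF4 effects above share their siCtrl libraries, the depletions were also compared with each other directly. All 5 genes that are not targeted by siY/T differed between siY/T and siATF4 in DMSO and in Sorafenib, at backgrounds of 77.3% (42.7% raised, 34.6% lowered) and 78.8% (43.0% raised, 35.8% lowered) of all genes. None of the 5 had overlapping groups, as for 86.6% and 89.2% of all genes. *TEAD2* was higher with siY/T by 0.77 in DMSO (SE 0.049, limma adjusted p = 7.07e-09) and by 0.86 in Sorafenib (SE 0.049, limma adjusted p = 2.37e-09). *VGLL4* was higher with siY/T by 0.36 (SE 0.047, limma adjusted p = 1.02e-05) and 0.67 (SE 0.047, limma adjusted p = 1.75e-08). *TEAD4* was lower with siY/T, by -0.60 (SE 0.064, limma adjusted p = 1.39e-06) and -0.75 (SE 0.064, limma adjusted p = 1.40e-07). *TEAD1* was lower by -0.47 (SE 0.101, limma adjusted p = 8.47e-04), or -0.26 without the first siY/T DMSO library, and by -0.72 in Sorafenib (SE 0.101, limma adjusted p = 1.89e-05). With any 1 library left out, the differences in DMSO ran from 0.74 to 0.81 for *TEAD2* and from 0.34 to 0.38 for *VGLL4*. They ran from -0.68 to -0.53 for *TEAD4* and from -0.67 to -0.26 for *TEAD1*. These 4 genes kept their direction under each scaling.

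*TEAD3* was the weak case in both media. It was higher with siY/T by 0.27 in DMSO (SE 0.076, limma adjusted p = 0.00586) and by 0.22 in Sorafenib (SE 0.076, limma adjusted p = 0.0191). Quantile normalization moved the median of all genes in these comparisons from 0.06 to -0.07 and left *TEAD3* at 0.13 and 0.07 (limma, adjusted p = 0.173 and 0.422). In DMSO the call was also lost without the first siY/T (0.18, limma adjusted p = 0.0540) or the second siATF4 library (0.23, limma adjusted p = 0.0524). In Sorafenib it was lost without the second siY/T (0.19, limma adjusted p = 0.0988) or the first siATF4 library (0.17, limma adjusted p = 0.126), and under TMM scaling (0.15), edgeR (0.16) and DESeq2 (0.16). The study's rule called 2 of the 5 genes in DMSO and 4 in Sorafenib, at backgrounds of 35.7% and 38.5%.

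The make-up of the TEAD transcripts shifted with each siRNA while their sum moved less. Per kilobase of the main transcript, the summed level was 101 ± 0.907 CPM (SD, n = 2) in siCtrl DMSO, 91.5 ± 0.999 in siY/T DMSO and 99.3 ± 4.59 in siATF4 DMSO. In Sorafenib it was 96.9 ± 0.583, 93.4 ± 2.43 and 113 ± 0.304 CPM. *TEAD2* took 24.4% ± 0.874 of the sum in siCtrl DMSO, 36.1% ± 1.34 in siY/T DMSO and 19.4% ± 1.55 in siATF4 DMSO. In Sorafenib its share was 25.0%, 35.3% and 16.0%, so it was the largest of the 4 shares in both siY/T groups on this scale and the third in the others.

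*TEAD1* took 23.9% ± 4.58 in siY/T DMSO and 42.8% ± 2.13 in siATF4 Srf, the lowest and highest of its 6 group means. *TEAD4* led in siATF4 DMSO with 43.6% ± 1.29 and was lowest in siY/T Srf with 25.4% ± 0.456. With all coding exons as the length, *TEAD1* led the sum in siY/T Srf with 35.5% against 33.2% for *TEAD2*, so the leading gene there depends on the length used. *YAP1* and *WWTR1* per TEAD stood at 0.238 ± 0.0367 in siY/T DMSO against 0.847, and at 0.205 ± 0.0107 in siY/T Srf against 0.816, which follows from their targeting. With siATF4 the same ratio was 0.657 ± 0.0261 in DMSO and 0.686 ± 0.0319 in Sorafenib. *VGLL4* per *YAP1* and *WWTR1* was 0.190 in siCtrl DMSO, 0.236 in siCtrl Srf, 1.04 and 1.20 in the siY/T groups and 0.265 and 0.185 in the siATF4 groups. These shares and ratios are descriptions of transcripts and were given no test.

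**Figure D4:**
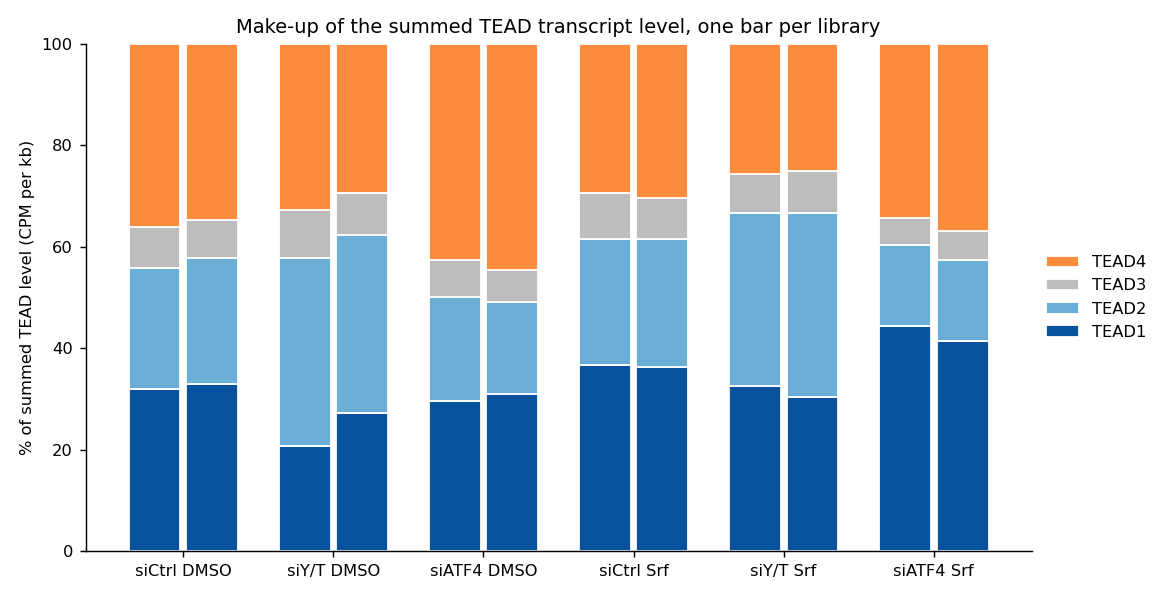
Share of *TEAD1* to *TEAD4* in their summed level (y axis, % of CPM per kilobase of the main transcript), 1 bar per library and 2 libraries per group. *TEAD2* takes 36.1% and 35.3% on average in the siY/T groups and 19.4% and 16.0% in the siATF4 groups.

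Across the 6 groups, the order of levels showed which neighbours had overlapping libraries. This order is a description, since 71.7% to 89.2% of all genes had no overlap in the comparisons of 2 groups above. For *YAP1*, siCtrl DMSO and siCtrl Srf each overlapped siATF4 Srf at the top but did not overlap each other. Below them siATF4 DMSO did not overlap its neighbours, and the siY/T groups overlapped at the bottom. *WWTR1* ran from siCtrl DMSO through siCtrl Srf, siATF4 Srf and siATF4 DMSO to the siY/T groups, and siCtrl Srf and siATF4 Srf lay within the sum of their SDs. *TEAD2* fell into 3 steps, the siY/T groups, the siCtrl groups and the siATF4 groups, with overlap between DMSO and Sorafenib in the first and second step. *TEAD4* was highest in the siATF4 groups and overlapped between siCtrl Srf and siY/T DMSO. *VGLL4* was the only one of the 7 genes with no overlap between any neighbours in the order, from siY/T Srf down to siATF4 Srf. How many of all genes have such an order was not counted. The gap between its siY/T groups was within the sum of their SDs and did not pass the test (limma, adjusted p = 0.455). Nor did the step from siATF4 DMSO to siCtrl DMSO (limma, adjusted p = 0.0998).

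Other genes of the pathway were read from lists written with earlier results of these data known. Their counts stand against a background of 60.1% and 48.9% of all genes called with siY/T in DMSO and in Sorafenib, and of 67.9% and 73.2% with siATF4. Among the VGLL genes outside the set, *VGLL1* and *VGLL2* did not pass the filter. *VGLL3*, a further cofactor that binds TEAD, was at 5.50 and 6.15 CPM in siCtrl DMSO and at 1.66 and 2.25 CPM in siY/T DMSO, a log2 fold change of -1.38 (SE 0.129, limma adjusted p = 1.29e-06). In Sorafenib it was at 4.70 and 4.40 CPM with siCtrl and at 2.61 and 2.85 CPM with siY/T, with -0.64 (SE 0.129, limma adjusted p = 0.00114), and the difference between these effects was 0.73 (SE 0.182, limma adjusted p = 0.0131). *VGLL3* therefore moved against *VGLL4* with siY/T, in both media.

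Of 21 tested YAP/TAZ target genes, 16 fell and 3 rose with siY/T in DMSO, with a median of -0.71 against 0.07 for all genes, and the counts in Sorafenib were the same with a median of -0.64. With siATF4, 12 of the 21 rose and 7 fell in DMSO, where 33.4% of all genes were raised and 34.4% lowered, and 12 rose and 5 fell in Sorafenib, where 35.8% were raised and 37.4% lowered. The medians were 0.16 and 0.30 against -0.00 and -0.01 for all genes. *CCN2*, a matrix protein gene and classic target, averaged 33.1 ± 0.844 CPM in siCtrl DMSO, 7.66 ± 0.267 in siY/T DMSO and 109 ± 11.4 in siATF4 DMSO. The log2 fold change of *CCN2* was -2.04 for siY/T (SE 0.084, limma adjusted p = 1.79e-09) and 1.71 with siATF4 (SE 0.084, limma adjusted p = 1.56e-09). *CCN1*, its relative, fell with siY/T in DMSO, with -1.92.

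AP-1 factors bind DNA beside TEAD at many enhancers, and 7 were tested. With siATF4 in DMSO 6 rose and 1 fell, at 67.9% of all genes called, and with siY/T 3 rose and 2 fell, at 60.1%. In Sorafenib 4 rose and 2 fell with siATF4, at 73.2%, and 2 rose and 4 fell with siY/T, at 48.9%. *FOSL1* was at a mean of 207 CPM in siCtrl DMSO, 543 CPM with siATF4 and 128 CPM with siY/T, log2 fold changes of 1.39 (SE 0.124, limma adjusted p = 4.76e-07) and -0.70 (SE 0.124, limma adjusted p = 3.14e-04). All 7 fell with Sorafenib in siY/T cells and all 7 in siATF4 cells, where 23.5% and 22.4% of all genes were lowered, with medians of -0.79 and -0.66 against 0.04 and 0.03 for all genes. In siCtrl cells 4 fell and 1 rose, at 63.2% of all genes called.

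Among 10 tested co-regulators of TEAD and YAP/TAZ, 5 rose and 1 fell with siY/T in DMSO and 6 rose and 0 fell in Sorafenib. With siATF4 5 fell and 1 rose in DMSO, and 6 fell and 1 rose in Sorafenib. These totals of 6 and 7 of 10 are close to the 67.9% and 73.2% of all genes called. *NCOA3*, a histone acetyltransferase recruiting coactivator, fell with siATF4, with log2 fold changes of -1.31 in DMSO and -1.27 in Sorafenib. *EP300*, an acetyltransferase, rose with siY/T by 0.46 and 0.39. Of 10 other DNA-binding partners of YAP/TAZ, 6 rose and 2 fell with siY/T in DMSO, led by the immediate early gene *EGR1* at 2.52 (SE 0.121, limma adjusted p = 5.62e-09). In Sorafenib 1 rose and 2 fell with siY/T. With siATF4 4 rose and 5 fell in DMSO, against 67.9% of all genes called, and 4 rose and 4 fell in Sorafenib, against 73.2%, where *RUNX1* rose by 1.54.

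The 27 tested Hippo kinases and upstream inhibitors did not move one way. *AMOTL2*, *LATS2* and *PTPN14* are in this list and in that of the YAP/TAZ target genes, so the counts of these lists are not independent. With siY/T 9 rose and 11 fell in DMSO, and 8 rose and 9 fell in Sorafenib. With siATF4 12 rose and 8 fell in DMSO, where 33.4% of all genes were raised and 34.4% lowered, and 15 rose and 8 fell in Sorafenib, where 35.8% were raised and 37.4% lowered. *AMOT*, which holds YAP at cell junctions, averaged 10.9 CPM in siCtrl DMSO, 24.3 CPM with siY/T and 3.42 CPM with siATF4. *TNIK*, a kinase of the MAP4K family, moved in the same directions, with log2 fold changes of 1.24 and -1.41, and *FRMD6*, an upstream activator of the kinases, fell with siY/T in DMSO, with -1.09. Of 10 genes for the cytoplasmic retention and turnover of YAP/TAZ, 3 rose and 3 fell with siY/T in DMSO and 2 rose and 2 fell in Sorafenib. With siATF4 2 rose and 6 fell in DMSO and 3 rose and 4 fell in Sorafenib, at 67.9% and 73.2% of all genes called, among them the 14-3-3 gene *YWHAH* with -1.49 in both media.

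The genes whose levels followed each member most closely over the 12 libraries were found by Pearson's r on log2(CPM + 0.5) among the 11145 candidates with a mean of at least 5 CPM. The libraries share their groups, so these values describe patterns and carry no test. *CLMN* followed *YAP1* with r = 0.989, *NDST1* followed *WWTR1* with 0.978 and *AFDN*, a gene of cell junctions, followed *TEAD1* with 0.968. *ADGRA3* followed *TEAD2* with 0.992 and *ARSD* followed *VGLL4* with 0.982. *TEAD4* was matched by *CMSS1*, *BOP1* and *CCT7* with 0.992, 0.992 and 0.991, of which *BOP1* acts in ribosome biogenesis and *CCT7* in protein folding. *TEAD3* had the lowest best match, *AK1* with 0.930.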

How the data were processed

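Poly(A) RNA from HLE cells was sequenced on an Illumina NextSeq with a stranded kit, per the labels. The authors aligned reads to hg19 with STAR, kept unique hits and counted RefSeq mRNA exons with QuasR, and the deposited values are CPM. The strand setting of the counting is not given in the sources used here. CPM steps gave whole reads for 100% of values within 0.001 read, so 1 read was worth 0.0186 to 0.0241 CPM.

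Groups came from the labels, with 2 libraries each. The study's methods describe more replicates than the 2 libraries per group analysed here, and where libraries did not come from separate cultures, p-values measure only the spread between them. The 13515 genes that reached 1 CPM in 2 or more libraries were fitted in R 4.3.3 with limma 3.58.1 (trend) on log2(CPM + 0.5), all 12 libraries and 6 groups together, with Benjamini-Hochberg adjustment over all genes. On this scale fold changes of low genes are understated. Whole reads were also tested with edgeR 4.0.16 (quasi-likelihood) and DESeq2 1.42.0. Counts of genes called in siY/T comparisons leave out *YAP1* and *WWTR1*, the siRNA targets. The members and lists were chosen with earlier results of these data known. The genes named were the 7 members, *ATF4*, up to 3 called genes of each list per comparison, taken by the size of their change where the mean reached 5 CPM, and the 3 genes most alike to each member. Positions are from GENCODE v44lift37 (GRCh37), promoters from RefSeq (GRCh38.p14). Alternatives were 2 pseudocounts, 2 filters, 2 scalings, 2 count tools, a fit of only the groups compared, the replicate block (also within each medium, added after seeing the data), the study's rule and leaving out each library.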

Additional observations from a re-analysis of the deposited data

Results flagged for a closer look

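For 3 of the 7 genes the effect of siATF4 differed between Sorafenib and DMSO by the test of the difference itself. For *WWTR1* the difference was 0.61 on the log2 scale (limma, adjusted p = 0.00206), with log2 fold changes of -0.70 in DMSO and -0.09 in Sorafenib. For *TEAD1* it was 0.58 (limma, adjusted p = 0.00635), with -0.12 and 0.45. For *VGLL4* it was -0.47 (limma, adjusted p = 1.43e-04), with 0.09 and -0.38. *ATF4* itself was lowered by siATF4 in both media, by -1.33 in DMSO and -2.47 in Sorafenib on the log2 scale.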

How the results depend on the processing

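No member called in the limma fit of all 12 libraries changed direction under any setting run. With the study's rule, the count of members called was 1 for siY/T and 1 for siATF4 in DMSO, 0 for each in Sorafenib, 0, 0 and 1 for Sorafenib in siCtrl, siY/T and siATF4 cells, 2 for siY/T against siATF4 in DMSO, and 1 for the difference of the siATF4 effect. A fit of only the groups compared called 4 genes for Sorafenib in siCtrl cells and 5 for the difference of the siATF4 effect. Leaving out single libraries gave 3 to 6 called genes for siATF4 in DMSO (3 without the first siCtrl DMSO or the second siATF4 DMSO library, 6 without either siY/T DMSO library), 2 to 4 for Sorafenib in siY/T cells (4 without the first siY/T DMSO library) and 0 to 2 for the difference of the siY/T effect (2 without the second siY/T DMSO library). The cause was not tested. Both kinds of fit also change the spread shared by all genes. The share of all genes called in them is not given here, so these counts are not a result about the members. The libraries left alone in a group are assumed to vary like the other groups. Of 77 member results, the pseudocounts of 0.1 and 1, the filter at 5 CPM and the replicate block changed 0 calls. With the replicate block, siY/T in DMSO called 4 of the 5 genes, and 5022 genes raised and 3023 lowered over all genes, against 5043 and 3079 without it. The deviations of same-numbered libraries correlated at 0.04 to 0.19 within DMSO, at 0.10 to 0.16 within Sorafenib and at -0.28 to 0.01 across media. The labels give the number no meaning, so a pairing within a medium is a hint from the data and not the design. A replicate block within each medium, chosen after seeing the data, lost 0 of the 77 calls and gained 4, namely *TEAD1* for the difference of the siY/T effect, where 1 gene was then called (limma, adjusted p = 0.0276), *WWTR1* for Sorafenib in siY/T cells (0.0377), and *YAP1* for Sorafenib in siATF4 cells (0.0334) and for the difference of the siATF4 effect (0.0443). Depth was not a limit for the 7 genes, since at least 915 reads lay behind each value, and 2 libraries per group limit the precision.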
